A study of Mus musculus with 8 samples.

Results

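The genes described here are 45 mouse genes of apoptosis and the p53 pathway, out of 21000 protein-coding genes with a curated RefSeq transcript. They were taken as a list of names, with no threshold on any measured value, but with earlier results of these data known. The study itself had listed apoptotic signalling among the functions of genes bound by c-Jun in EpiSCs. The share of these genes with a peak is therefore a description and not an independent test. By their textbook roles 12 of the 45 genes protect cells from death, 29 promote death and 4 were put on neither side. A gene was counted as having a c-Jun peak when the centre of a peak lay within 10 kb of one of its transcription start sites (TSSs) on the mouse genome mm10.

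c-Jun was mapped by ChIP-seq in 2 mouse cell lines, with 2 c-Jun libraries and 2 input libraries for each line. EpiSCs are epiblast stem cells, the primed pluripotent cells grown from the mouse epiblast, and were cultured without feeder cells in Activin A and bFGF. kEpiSCs are the same kind of cell with a lentiviral Klf4 transgene, selected for drug resistance, and c-Jun was not altered in either line. One list of peaks per line was used, with 16166 peaks for EpiSCs and 6032 for kEpiSCs.

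Both lines were labelled as epiblast stem cells. The strain label CBA/CaJ X C57BL/6J was given for the EpiSC c-Jun libraries alone, whereas the methods of the study describe another cross, with OG2 males. The antibody label and the methods of the study named c-Jun, whereas the protocol text of the labels named H3K27ac. In the whole EpiSC list 45.9% of peaks held an exact AP-1 site near the centre, and in the whole kEpiSC list 58.5% did. Peak lists hold no expression values, so the identity of the cells was not checked against marker genes. Each list was taken to pool both c-Jun libraries of its line, although it may rest on the first one, so no spread between replicates could be given. Intervals are 95% Wilson intervals and cover counting error only, and no difference between the lines was tested.

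In the intrinsic pathway of apoptosis, BH3-only proteins sense damage and either activate the pore-forming proteins BAX and BAK or neutralise the BCL2-type proteins that hold these in check. Pores in the outer mitochondrial membrane release cytochrome c, which joins APAF1 and caspase 9 into the apoptosome, while inhibitor of apoptosis proteins block caspases downstream. p53 switches on several BH3-only genes and also its own inhibitor Mdm2. c-Jun is a subunit of AP-1, a dimer of Jun and Fos family proteins, and is known to act for survival in some cells and for death in others. AP-1 binds the sequence TGAGTCA or its reverse complement TGACTCA, and dimers with ATF or CREB proteins bind the CRE, TGACGTCA.

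The sequences that follow are from the peaks near these genes that held an exact AP-1 site, because the site is where a Jun dimer could contact the DNA. Each is a stretch of 61 bp on the plus strand of mm10 read from the GRCm38.p6 RefSeq genome, and capitals mark the AP-1 site. Sites were sought in the central 200 bp of a peak, and for Mdm2 in the whole peak. The first was the strongest peak of the whole group, upstream of Mdm2, with a pair of AP-1 sites at its summit.
Mdm2, upstream (chr10:117721584-117721644): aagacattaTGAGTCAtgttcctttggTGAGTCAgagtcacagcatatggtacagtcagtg
Mdm2, beyond its 3′ end (chr10:117677649-117677709): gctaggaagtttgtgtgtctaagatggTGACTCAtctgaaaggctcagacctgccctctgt
Mcl1, upstream (chr3:95650757-95650817): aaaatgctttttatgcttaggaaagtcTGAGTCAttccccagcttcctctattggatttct
Mcl1, downstream (chr3:95664422-95664482): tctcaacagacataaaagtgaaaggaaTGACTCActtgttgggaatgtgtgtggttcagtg
Mcl1, downstream, kEpiSCs (chr3:95666314-95666374): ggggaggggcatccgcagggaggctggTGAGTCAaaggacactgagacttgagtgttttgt
Xiap, upstream (chrX:42058036-42058096): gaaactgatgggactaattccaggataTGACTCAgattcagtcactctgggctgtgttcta
Tmbim6, intron (chr15:99400773-99400833): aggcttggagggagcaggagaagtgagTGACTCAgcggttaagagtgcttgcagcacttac
Bak1, upstream (chr17:27038423-27038483): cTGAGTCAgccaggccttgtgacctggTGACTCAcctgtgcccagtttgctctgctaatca
Bbc3, intron (chr7:16314067-16314127): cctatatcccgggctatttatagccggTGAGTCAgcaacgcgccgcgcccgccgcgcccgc
Bid, intron (chr6:120909743-120909803): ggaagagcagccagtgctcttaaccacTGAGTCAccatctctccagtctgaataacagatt
Bmf, intron, kEpiSCs (chr2:118540979-118541039): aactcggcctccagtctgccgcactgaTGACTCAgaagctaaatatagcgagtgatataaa
Apaf1, upstream (chr10:91092438-91092498): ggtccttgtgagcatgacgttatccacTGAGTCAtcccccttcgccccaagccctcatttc
Trp53inp1, upstream (chr4:11148239-11148299): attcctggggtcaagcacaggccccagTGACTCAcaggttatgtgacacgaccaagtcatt
Perp, promoter (chr10:18844990-18845050): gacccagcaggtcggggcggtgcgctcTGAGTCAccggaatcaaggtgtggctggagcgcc
Hrk, intron (chr5:118180959-118181019): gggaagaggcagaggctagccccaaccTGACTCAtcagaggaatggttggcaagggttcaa

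For contrast, 3 EpiSC peaks of the group within 10 kb without an exact AP-1 site in their central 200 bp are shown. They had the highest scores of that kind, and capitals mark a CRE where there was one.
Birc2, promoter (chr9:7837058-7837118): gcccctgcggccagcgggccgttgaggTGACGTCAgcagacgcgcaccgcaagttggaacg
Ppif, downstream (chr14:25701303-25701363): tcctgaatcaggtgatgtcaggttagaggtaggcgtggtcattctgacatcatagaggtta
Bik, intron (chr15:83535787-83535847): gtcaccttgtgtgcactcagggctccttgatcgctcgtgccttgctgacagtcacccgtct

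In EpiSCs 18 of the 45 genes had c-Jun binding within 10 kb, or 40.0% (27.0 to 54.5%), against 21.8% of all protein-coding genes (4576 of 21000). Weighted to the gene lengths of the 45 genes, the share of all genes was 23.3%, so 10.5 genes would have had a peak at that share. The 18 genes were Bcl2l1, Mcl1, Mdm2, Xiap, Birc2 and Tmbim6 on the survival side and Bax, Bak1, Bid, Bik, Bbc3, Apaf1, Casp9, Htra2, Bnip3l, Ppif, Trp53inp1 and Perp on the death side. In kEpiSCs 10 of the 45 genes had a peak, or 22.2% (12.5 to 36.3%), against 8.27% of all genes (1736 of 21000) and 8.93% at the same gene lengths. These were Mcl1, Birc2, Tmbim6, Bak1, Bmf, Bbc3, Cycs, Ppif, Parp1 and Sesn1.

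Within 10 kb, the share of genes with a peak was above that of genes at large on both sides. Of the 12 pro-survival genes 6 had an EpiSC peak (50.0%, 25.4 to 74.6%), and of the 29 pro-death genes 12 did (41.4%, 25.5 to 59.3%). The 2 intervals overlapped over most of their width, and genes of the same length had a peak in 23.4% and 23.2% of cases. In kEpiSCs the counts were 3 of 12 (25.0%, 8.89 to 53.2%) and 5 of 29 (17.2%, 7.6 to 34.5%), against 8.88% and 8.93% of genes of the same length. Of the 4 genes on neither side, Parp1 and Sesn1 had a kEpiSC peak and none had an EpiSC peak.

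**Figure D1:**
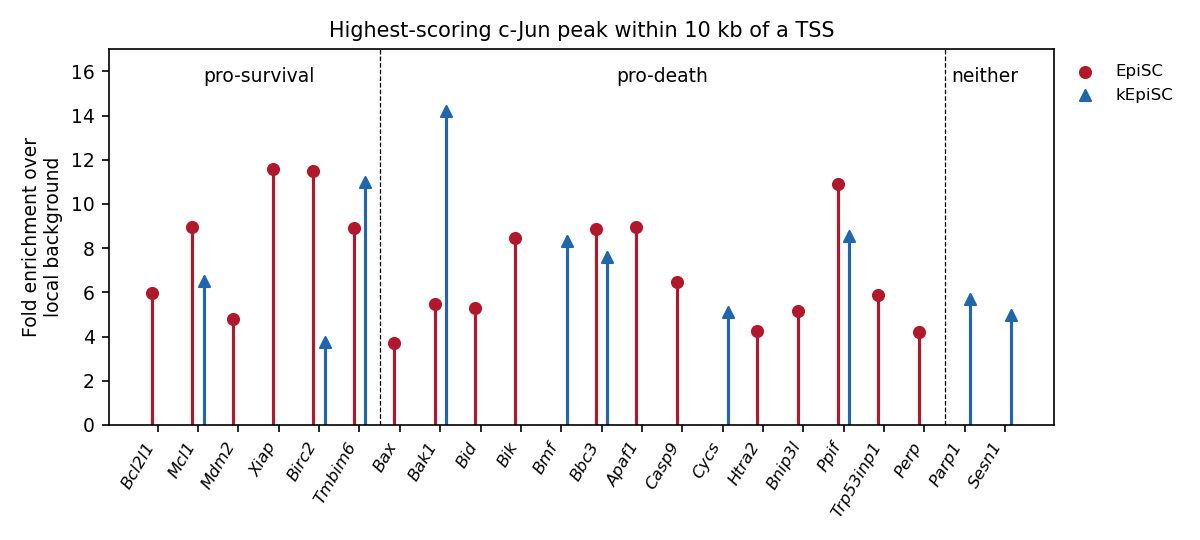
Fold enrichment over the local background (y axis) of the highest-scoring c-Jun peak no more than 10 kb from a TSS, for the 22 genes with a peak in either line (x axis), EpiSCs as circles and kEpiSCs as triangles, with 1 value per line and no error. EpiSC values run from 3.7 at Bax to 11.6 at Xiap, and the highest kEpiSC value is 14.2 at Bak1.

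The classes of genes that follow hold from 1 to 8 genes, and their counts are descriptions to be read against the 21.8% of all genes with a peak in EpiSCs and the 8.27% in kEpiSCs. Among the BCL2-type survival genes, 2 of 5 had an EpiSC peak, Mcl1 and Bcl2l1, which encodes BCL-XL. Mcl1, whose protein is short-lived and sequesters BAK and BH3-only proteins, had 4 EpiSC peaks within 10 kb and none of them at its promoter. They lay 7957 and 7095 bp upstream and 5694 and 9422 bp downstream of the TSS. Fold enrichment is the pileup of reads at the summit over that of the local background, with 1 added to both. Each read adds 1.0 to the pileup in the EpiSC list and 0.775 in the kEpiSC list. For the 4 EpiSC peaks the fold was 7.91, 7.43, 8.94 and 8.59 in that order. The reads at the summit were 21, 11, 18 and 14. The peaks at 7957 bp upstream and 5694 bp downstream held the AP-1 sites printed above. These sites stood 27 and 231 bp from the EpiSC summits, so the printed downstream stretch does not reach the summit.

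Mcl1 also had 4 peaks in kEpiSCs, and 3 of them overlapped EpiSC peaks. The overlapping peaks were centred 8096 and 7151 bp upstream and 5666 bp downstream, with fold enrichments of 6.53, 7.48 and 6.55. The remaining kEpiSC peak, on chromosome 3 from 95666298 to 95666416 (fold 6.87, 16 reads), overlapped no EpiSC peak and held the AP-1 site printed above for kEpiSCs. Mcl1 thus had peaks on both sides of the gene in both lines. Within 50 kb it had 11 EpiSC peaks, a number reached by 0.395% of all genes, and 7 kEpiSC peaks, reached by 0.148%. Some of these peaks were nearer to Ensa or Adamtsl4 than to Mcl1.

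Bcl2l1 had 3 EpiSC peaks within 10 kb, all inside the gene and all weaker than those of Mcl1. One lay in 5′ UTR exon 2, 613 bp from the nearest TSS (fold 5.15, 7 reads). The other two lay in intron 2, on chromosome 2 from 152820348 to 152820656 (fold 5.29, 9 reads) and from 152822024 to 152822138 (fold 5.95, 8 reads). None held an AP-1 site in its central 200 bp. The same intron had 3 further EpiSC peaks beyond 10 kb, with folds of 3.7, 7.58 and 8.99, and 1 kEpiSC peak with a fold of 8.1. Bcl2, the founding member of the family, had its nearest EpiSC peak 307029 bp away. The nearest one was 386272 bp away for Bcl2a1a and 62595 bp for Bcl2l2, which encodes BCL-W.

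Mdm2 encodes the ubiquitin ligase that marks p53 for destruction. All of its peaks within 50 kb were listed, 4 in EpiSCs and 1 in kEpiSCs. Only the weakest of the EpiSC peaks was inside 10 kb, on chromosome 10 from 117719224 to 117719338, 8523 bp upstream, with a fold of 4.79 and 6 reads over a background of 0.462. By contrast, the peak from 117721234 to 117722203 ranked 2 among all 16166 EpiSC peaks by q-value, and its centre lay 10961 bp upstream, just past the limit. It was 970 bp wide, with 44 reads at the summit over a background of 0.594 and a fold of 28.2.

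The same upstream site was bound in kEpiSCs, on chromosome 10 from 117721520 to 117721706. Its centre lay 10855 bp upstream, its fold was 18.5 with 34 reads, and 0.647% of the kEpiSC peaks ranked above it. The pair of TGAGTCA sites at positions 117721593 and 117721611 were centred 23 and 5 bp before the EpiSC summit, and the kEpiSC summit fell on the first base of the second site. So both summits fell at or next to these 2 sites. Mdm2 was counted as a gene with a peak in EpiSCs and without one in kEpiSCs, although its strongest peak was present in both lines.

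The 2 remaining Mdm2 peaks were found only in the EpiSC list and lay in introns of Cpm, the neighbouring carboxypeptidase M gene. The peak in Cpm intron 7, from 117677552 to 117677748, was 33108 bp downstream of the Mdm2 TSS, with a fold of 7.13 and 10 reads. It held a TGACTCA whose middle base was 2 bp from the summit. The peak in Cpm intron 3, from 117663126 to 117663268, was 47561 bp downstream with a fold of 6.35, 11 reads and no exact AP-1 site. Mdm4, which binds and inhibits p53 without being a ligase itself, had its nearest EpiSC peak 38026 bp away (fold 3.96) and its nearest kEpiSC peak 38024 bp away (fold 4.38).

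**Figure D2:**
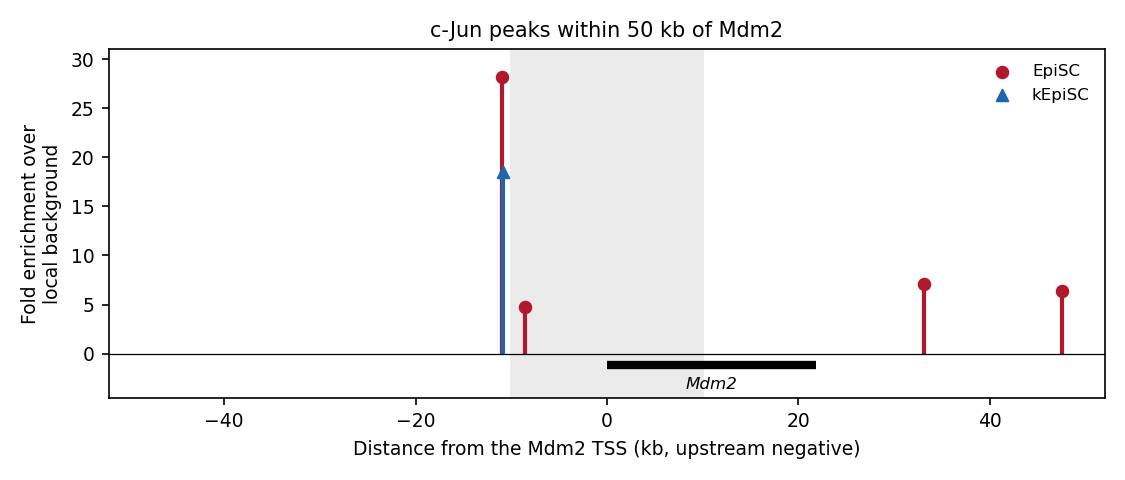
c-Jun peaks within 50 kb of the Mdm2 TSS, with distance in kb on the x axis (upstream negative, the black bar is the gene) and fold enrichment over the local background on the y axis, EpiSCs as circles and kEpiSCs as triangles. The strongest peak of each line, with folds of 28.2 and 18.5, lies just outside the grey band that marks 10 kb on either side.

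Inhibitors of apoptosis had peaks at 2 of 4 genes in EpiSCs. Xiap, which directly inhibits caspases, had the highest fold of the group within 10 kb in EpiSCs, 11.6 with 16 reads over a background of 0.462, on chromosome X from 42057989 to 42058176. The peak lay 9753 bp upstream, near the limit, and held 2 AP-1 sites, one 6 bp from the summit. In kEpiSCs the nearest peak to Xiap was 21250663 bp away, and for Aifm1, the other X-linked gene of the group, 22370100 bp. The lists had 96 EpiSC and 31 kEpiSC peaks on the whole of chromosome X.

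Birc2 encodes cIAP1, a ubiquitin ligase of TNF receptor signalling, and had a peak at its promoter in both lines. The EpiSC peak, on chromosome 9 from 7836895 to 7837316, was centred 49 bp upstream of a TSS with a fold of 11.5 and 21 reads over a background of 0.921. In kEpiSCs the peak was centred 22 bp upstream with a fold of 3.74 and 18 reads over a background of 3.87. The reads were thus similar and the background was not, and the worth of 1 read in the pileup also differed between the lists (1.0 and 0.775). Both peaks held a full CRE and no exact AP-1 site in the central 200 bp. The same peak was the nearest to Birc3, which encodes cIAP2, at 36064 bp. For Birc5, which encodes survivin, the nearest EpiSC peak was 16697 bp away.

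Tmbim6 encodes BAX inhibitor 1, a membrane protein of the endoplasmic reticulum. It had 1 peak in intron 2 in each line, 7592 bp downstream of a TSS in EpiSCs (fold 8.9, 17 reads) and 7598 bp downstream in kEpiSCs (fold 11.0, 19 reads). The 2 peaks overlapped and held the same 2 TGACTCA sites.

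On the death side, 2 of the 3 pore-forming genes had an EpiSC peak, Bax and Bak1, and both peaks were nearer to another gene. The Bak1 peak, on chromosome 17 from 27038357 to 27038554, lay 9829 bp upstream of Bak1 and 9197 bp from Ggnbp1. Its fold was 5.48 with 24 reads over a background of 3.56. At the same place kEpiSCs had the strongest peak of the group within 10 kb, with a fold of 14.2 and 28 reads over a background of 0.768. Read counts were close in the 2 lines and the background was lower in kEpiSCs, although the worth of 1 read in the pileup differed between the lists. Sequencing depth was not compared, and the reason for the difference in fold was not tested. The site held 3 AP-1 sites in both lines.

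The Bax peak, on chromosome 7 from 45459886 to 45460055, was at the promoter of the ferritin gene Ftl1, 85 bp from its TSS and 6927 bp downstream of that of Bax. It was among the weakest peaks of the group, with a fold of 3.7 and 6 reads. Bok, the third pore-forming gene, had its nearest EpiSC peak at 19995 bp and its nearest kEpiSC peak at 29485 bp.

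BH3-only genes had an EpiSC peak in 3 of 8 cases (21.8% of all genes), Bbc3, Bid and Bik, and a kEpiSC peak in 2 of 8 (8.27% of all genes), Bbc3 and Bmf. Bbc3 encodes PUMA, a main killer downstream of p53. It had a peak in intron 3 on chromosome 7 from 16314072 to 16314203, 3707 bp from a TSS, with a fold of 8.85 and 16 reads in EpiSCs and 7.59 and 19 reads in kEpiSCs. The shared TGAGTCA was 68 and 62 bp from the 2 summits. Bid links death receptors to mitochondria once it is cut by caspase 8. It had an EpiSC peak in intron 1 with 6 reads (fold 4.79) and another 5373 bp upstream with 7 reads (fold 5.29). A stronger EpiSC peak lay just outside the limit, 11108 bp upstream (fold 8.25, 14 reads). It overlapped a kEpiSC peak centred 11019 bp upstream (fold 6.13).

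Bik, a BH3-only protein of the endoplasmic reticulum, had a peak in intron 1, 9012 bp downstream (fold 8.47, 15 reads), in EpiSCs and none within 10 kb in kEpiSCs. Bmf, which is tethered to the cytoskeleton in healthy cells, had the opposite pattern. Its kEpiSC peak in intron 4, on chromosome 2 from 118540941 to 118541093, had a fold of 8.32 and 14 reads, and the nearest EpiSC peak was 109523 bp away. Hrk, the BH3-only gene known from neurons, was missed by the 10 kb limit in both lines. It was singled out after its values were seen. Its intron 1 peak lay 11212 bp downstream in EpiSCs (fold 18.5, 26 reads) and 11189 bp downstream in kEpiSCs (fold 14.9, 26 reads), with 3 AP-1 sites. In EpiSCs 0.878% of all peaks ranked above it.

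The 3 BH3-only genes left had no peak within 10 kb in either line. The nearest EpiSC peak was 38809 bp away for Bad, 82483 bp for Bcl2l11, which encodes BIM, and 252534 bp for Pmaip1, which encodes NOXA and is a p53 target like Bbc3. Of the pair of classical p53-induced BH3-only genes, Bbc3 therefore had a c-Jun peak inside the gene in both lines and Pmaip1 had none within 50 kb in either.

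For the apoptosome and initiator caspases, the counts were 2 of 5 in EpiSCs, Apaf1 and Casp9, and 1 of 5 in kEpiSCs, Cycs. Apaf1 shares its promoter with Ikbip, and a weak EpiSC peak lay there (fold 3.27, 11 reads over a background of 2.67). A stronger one, on chromosome 10 from 91092296 to 91092656, lay in Ikbip intron 1, 9733 bp from the Apaf1 TSS, with a fold of 8.94, 18 reads and a TGAGTCA. Both were nearer to the Ikbip TSS. The strongest EpiSC peak within 50 kb of Apaf1 lay just outside the limit, 10271 bp upstream (fold 14.3, 26 reads), also nearer to Ikbip. It overlapped the nearest kEpiSC peak to Apaf1, which was 10249 bp away with a fold of 8.91. Apaf1 was thus counted in EpiSCs alone, although its strongest peak was listed in both lines.

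Casp9, the initiator caspase of the apoptosome, was counted through 2 EpiSC peaks at the promoter of its neighbour Dnajc16, 2885 bp (fold 6.47, 17 reads) and 2421 bp (fold 3.95, 7 reads) from its own TSS. Cycs encodes cytochrome c and had a peak over its TSS in kEpiSCs, centred 40 bp downstream (fold 5.11, 10 reads). Its nearest EpiSC peak was 118822 bp away. Casp2 and Casp8 had no peak within 50 kb in either line, and their nearest EpiSC peaks were 84722 and 148833 bp away.

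Of the 6 mitochondrial death factors 3 had an EpiSC peak, Htra2, Bnip3l and Ppif. Htra2, a protease that degrades inhibitor of apoptosis proteins, shares its promoter with Aup1, and the EpiSC peak was centred 11 bp downstream of its TSS (fold 4.23, 8 reads). Bnip3l, which encodes the mitophagy receptor NIX, had a promoter peak 111 bp upstream with a fold of 5.15, 8 reads and a CRE. Ppif encodes cyclophilin D, a regulator of the mitochondrial permeability pore. It had a promoter peak 101 bp upstream (fold 5.73, 10 reads) and a stronger one 7016 bp downstream, in non-coding exon 1 of the RNA gene Ppifos.

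The downstream Ppif peak, on chromosome 14 from 25700950 to 25701422, had a fold of 10.9 and 15 reads in EpiSCs and 8.56 and 15 reads in kEpiSCs. It was thus the Ppif peak within 10 kb that both lines shared. In neither line did its central 200 bp hold an exact AP-1 site. Diablo, Bnip3 and Aifm1 had no peak within 10 kb. The nearest EpiSC peak was 141997 bp away for Diablo and 22312 bp for Bnip3, and Aifm1, which encodes apoptosis-inducing factor, was the farthest of the 45 genes from an EpiSC peak at 536873 bp.

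Trp53inp1 and Perp, p53 targets outside the BH3-only family, both had an EpiSC peak. Trp53inp1, whose product aids p53 phosphorylation, had a peak 8149 bp upstream (fold 5.87, 8 reads) with a TGACTCA. Perp, a membrane protein of desmosomes, had a peak 71 bp upstream of its TSS, on chromosome 10 from 18844917 to 18845083. Its 22 reads stood over a background of 4.45, which gave a fold of 4.22. Among the EpiSC promoter peaks of the group it alone held an exact AP-1 site in the central 200 bp. In kEpiSCs the nearest peaks were 29124 bp from Trp53inp1 and 201109 bp from Perp.

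p53 itself and its relatives had no peak within 10 kb in either line. The nearest EpiSC peak to Trp53 was 52489 bp away and that to Trp73 was 278543 bp away. Trp63 had an EpiSC peak in intron 3, 24314 bp upstream of its nearest TSS, with a fold of 6.35. The death receptor genes Fas and Tnfrsf10b (371719 and 94181 bp) and Ddit3, which encodes the stress factor CHOP (24532 bp), had none within 10 kb either. Of the 2 sestrin genes and Parp1, Sesn1 and Parp1 had a kEpiSC peak within 10 kb and none had an EpiSC peak. Parp1, which encodes the DNA damage sensor PARP1, had a peak 14 bp upstream of its TSS (fold 5.7, 10 reads) and Sesn1, a sestrin that restrains mTORC1, had one 242 bp upstream (fold 4.96, 8 reads). Sesn2 had its nearest EpiSC peak at 13108 bp and its nearest kEpiSC peak at 45268 bp.

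**Figure D3:**
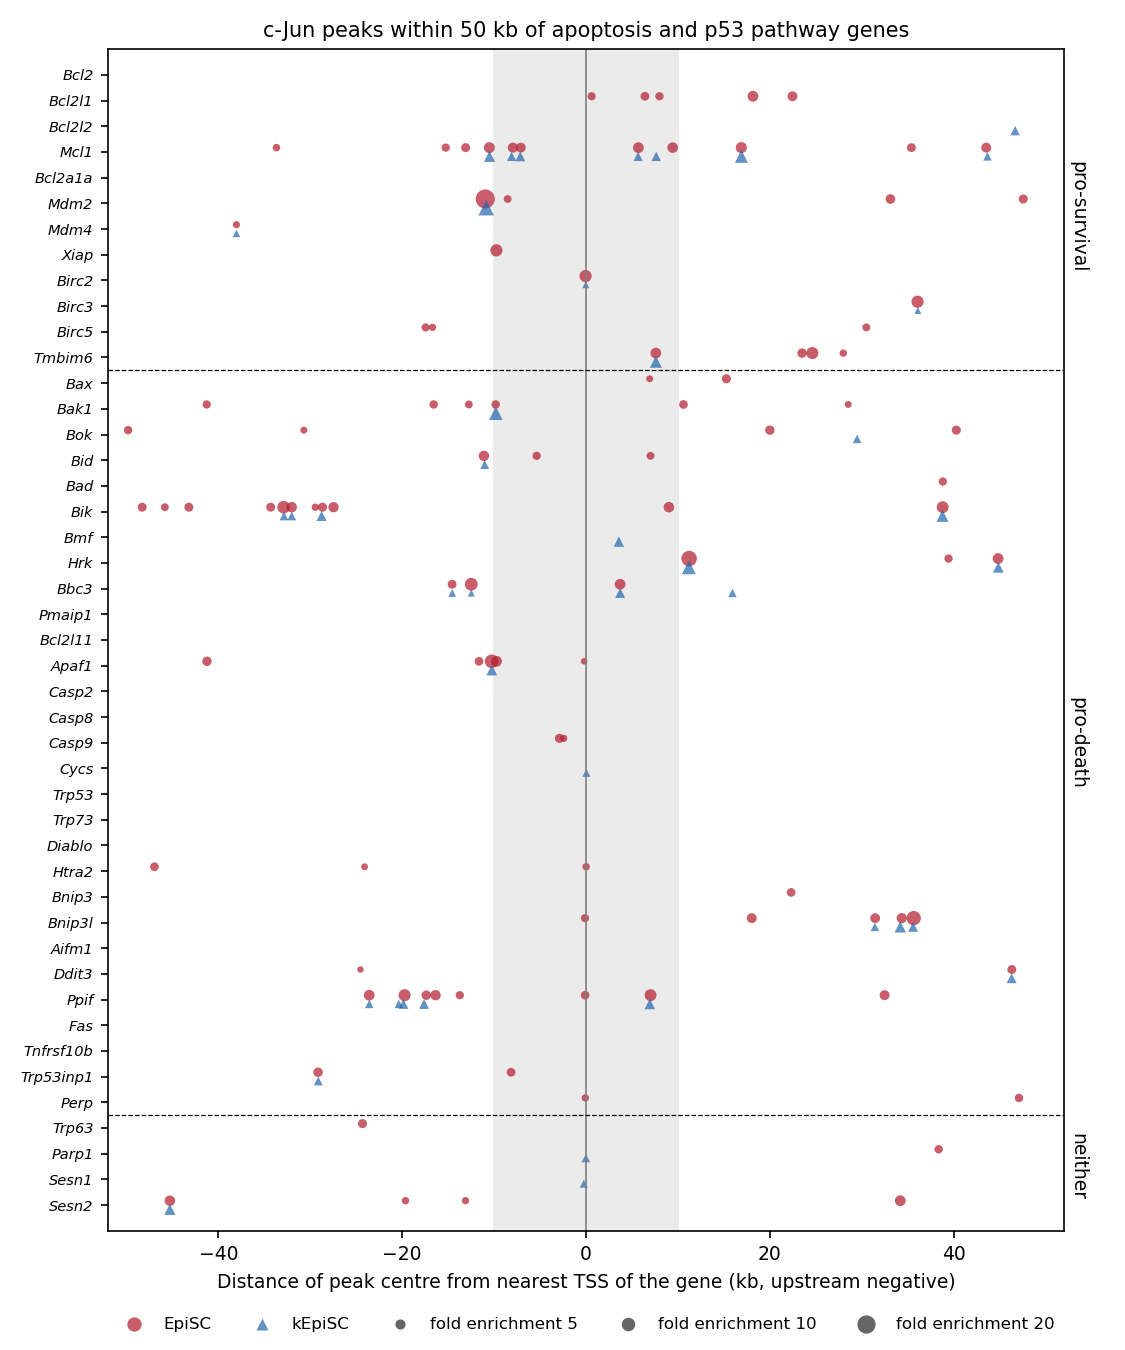
All c-Jun peaks within 50 kb of the 45 genes, with the distance of the peak centre from the nearest TSS of the gene in kb on the x axis (upstream negative) and 1 row per gene, EpiSCs as circles and kEpiSCs as triangles sized by fold enrichment. The grey band marks 10 kb on either side, and 16 genes have no EpiSC peak anywhere in the range.

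A peak was listed in both lines for 6 of the 45 genes (13.3%, against 6.58% of all protein-coding genes), in EpiSCs alone for 12 (26.7%, against 15.2%), in kEpiSCs alone for 4 (8.89%, against 1.69%) and in neither for 23 (51.1%, against 76.5%). Those in both were Bak1, Bbc3, Birc2, Mcl1, Ppif and Tmbim6, and each of the 6 had overlapping peaks in the 2 lines. Apaf1, Bid and Mdm2 were counted in EpiSCs alone, yet each had a peak just outside 10 kb that was listed in both lines. For 8 of the 27 EpiSC peaks of the group a kEpiSC peak overlapped by at least 1 bp (29.6%, 15.9 to 48.5%), against 23.1% of the 5185 EpiSC peaks within 10 kb of any protein-coding TSS. Of the 13 kEpiSC peaks of the group, 8 overlapped an EpiSC peak (61.5%, 35.5 to 82.3%), against 68.9% of the 1743 near any such TSS. A peak listed in one line and absent from the other was not shown to differ, since the kEpiSC list is shorter and a signal below the threshold of the peak caller leaves no entry.

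The distance at which peaks were counted decided much of the count. Within 1 kb of a TSS 7 of the 45 genes had an EpiSC peak (15.6%, against 9.25% of all genes), and within 5 kb 9 did (20.0%, against 15.3%). For 9 further genes the nearest EpiSC peak lay between 5 and 10 kb away, which raised the count to 18. Within 50 kb 29 of the 45 genes had one (64.4%, against 50.7%). In kEpiSCs the counts were 4 within 1 kb (8.89%, against 2.46%), 6 within 5 kb (13.3%, against 5.13%) and 23 within 50 kb (51.1%, against 27.0%).

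Within 5 kb, 2 of 12 pro-survival genes and 7 of 29 pro-death genes had an EpiSC peak, or 16.7% and 24.1%, against 15.3% of all genes. The pro-survival share was thus near that of all genes at 5 kb. At 50 kb the counts were 9 of 12 and 17 of 29, or 75.0% and 58.6%, against 50.7% of all genes. The order of the 2 sides thus turned over between 5 and 10 kb, with intervals that overlapped at 10 kb. Just inside 10 kb in EpiSCs were Xiap (9753 bp) and Bak1 (9829 bp), and just outside were Hrk (11212 bp) and Sesn2 (13108 bp). In kEpiSCs 4 genes had their nearest peak between 10 and 12 kb away, namely Apaf1 (10249 bp), Mdm2 (10855 bp), Bid (11019 bp) and Hrk (11189 bp).

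**Figure D4:**
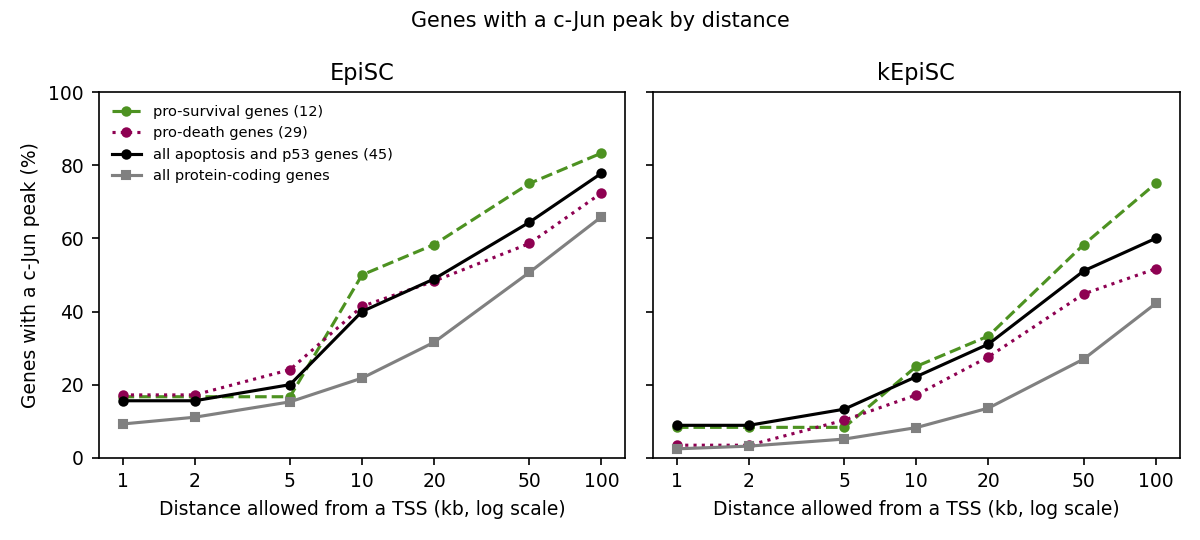
Share of genes with a c-Jun peak (y axis, %) by the distance allowed from a TSS (x axis, kb, log scale), for EpiSCs on the left and kEpiSCs on the right. The 45 genes lie above all protein-coding genes at each distance drawn, with the widest gap in EpiSCs at 10 kb (40.0% against 21.8%), and the pro-survival genes rise from 16.7% at 5 kb to 50.0% at 10 kb.

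Of the 27 EpiSC peaks of the group, 9 lay at a promoter of a protein-coding gene, from 1000 bp upstream to 100 bp downstream of a TSS. In 6 cases it was the promoter of the gene itself, Apaf1, Birc2, Bnip3l, Htra2, Perp or Ppif, and in 3 cases that of a neighbour only. The 18 other peaks were stronger, with a median fold of 7.67 against 4.23 at promoters, and the same order was seen for all peaks within 10 kb of a TSS (6.16 and 5.29). An exact AP-1 site stood within the central 200 bp of 9 of these 18 peaks (50.0%, 29.0 to 71.0%, against 43.8% of all such peaks) and of 1 of the 9 promoter peaks (11.1%, against 15.1%). A CRE was found in 2 of the 9 promoter peaks, those of Birc2 and Bnip3l (22.2%, against 7.46% of all promoter peaks), and in none of the 18 others (1.83% of all such peaks).

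Across the 27 EpiSC peaks the median fold was 5.87 (3.27 to 11.6), the summit held a median of 11 reads (quartiles 8 and 17) and 10 held an AP-1 site (37.0%, 21.5 to 55.8%). The 5185 EpiSC peaks near any protein-coding TSS had a median fold of 5.82, a median of 10 reads and an AP-1 site in 35.7%. Sought over the whole peak, an AP-1 site stood in 11 of the 27 (40.7%, against 40.5% near any protein-coding TSS). In kEpiSCs the 13 peaks of the group had a median fold of 6.87 and 6 held an AP-1 site (46.2%, 23.2 to 70.9%), against 6.7 and 49.2% near any protein-coding TSS. In median fold and in AP-1 content the peaks near apoptosis and p53 pathway genes were thus close to the peaks near genes at large, whose shares lay inside the intervals.

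A separate list of 54 other genes of the same pathways was set beside the 45. In EpiSCs 20 of the 54 had a peak within 10 kb (37.0%, 25.4 to 50.4%), against 22.9% of genes of the same length, and in kEpiSCs 4 did (7.41%, 2.92 to 17.6%), against 8.75%. The groups within this list are small, and their counts are to be read against the 21.8% of all genes with a peak in EpiSCs. Further p53 targets had an EpiSC peak in 10 of 18 cases. The cell cycle inhibitor gene Sfn, which encodes 14-3-3σ, had the highest-scoring peak, with a fold of 13.9 in EpiSCs and 13.7 in kEpiSCs, and Gadd45b (11.6), Btg2 (9.45) and Cdkn1a (7.55), which encodes p21, followed in EpiSCs alone. Executioner caspases and nucleases had a peak in 1 of 7 cases, Casp6, with a fold of 14.4, 20 reads and 2 AP-1 sites in intron 1.

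Other BCL2 family genes and cofactors had an EpiSC peak in 4 of 9 cases, Bag1 (6.17), Bag3 (5.76), Bcl2l10 (6.35) and Bcl2l14 (6.16). p53 activators and regulators had one in 3 of 12, the acetyltransferase gene Kat5 (7.94), the checkpoint kinase gene Chek2 (5.83) and Cdkn2a (5.58), whose ARF product inhibits MDM2. For death receptor signalling it was 2 of 8, Traf2 (5.36) and Tradd (4.23). The counts for p53 regulators and death receptor signalling were near the 21.8% of all genes. The kEpiSC counts were 2 of 18 for p53 targets, 1 of 9 for BCL2 family genes and cofactors and 1 of 12 for p53 regulators. They were 0 for the other 2 groups, against 8.27% of all genes.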

How the data were processed

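The 2 c-Jun peak lists deposited for EpiSCs and kEpiSCs were used. Per the study's methods, alignment was to mm10 by Bowtie2, reads with a unique position were kept, and MACS2 called peaks with its defaults. SAMtools, bcl2fastq and bedtools stand in the submitters' processing notes as well. Their versions were not given in the sources used here. For each peak the columns that the authors deposited hold a score (from the q-value), a fold enrichment over the local background, the −log10 p-value, the −log10 q-value and the summit. Reads per library were not analysed here. Fold and p-value together were solved for the reads and background at the summit, within 0.01 in −log10 p for 100% of peaks.

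TSSs were those of curated RefSeq transcripts (GRCm38.p6). Motifs were sought on both strands in the central 200 bp of a peak, and for Mdm2 in the whole peak. Background shares were weighted by 10 groups of gene length. The members, roles and lists were chosen with earlier results of these data known, and no test over genes was made. Every gene with a peak within 10 kb in either line was described, the others by their nearest peak, and every Mdm2 peak within 50 kb. Up to 4 other pathway genes per group were named by score. Alternatives covered the distance, the overlap, the motif, the scores and the roles. Calculations used pandas 2.3.3, pysam 0.24.0, scipy 1.17.1 and numpy 2.4.6 under Python 3.11.15 and were tested on simulated data.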

Additional observations from a re-analysis of the deposited data

How the results depend on the processing

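No paired analysis was possible because the 2 c-Jun libraries of a line share 1 peak list, and leaving out a replicate was not possible either. Of 58 alternatives to the 8 main values, 43 left the value within the range set for it and 15 moved it. A value inside its range could still stand against another share of all genes. Linking peaks to genes by the closest TSS, in place of the 10 kb limit, gave 19 genes in EpiSCs (42.2%, against 33.5% of all genes). The pro-survival share was then 50.0% and the pro-death share 41.4%. These EpiSC shares were closer to that of all genes than at 10 kb. In kEpiSCs this linking gave 15 genes (33.3%, against 17.2%). At 5 kb the genes with a peak were 9 of 45 in EpiSCs (2 pro-survival and 7 pro-death) and 6 of 45 in kEpiSCs, and at 50 kb 29 and 23. With only the higher-scoring 50% of each list they were 10 (10.7% of all genes) and 6 (3.82%). In EpiSCs 4 of 12 pro-survival genes (33.3%) and 6 of 29 pro-death genes (20.7%) then had a peak. Of the EpiSC peaks of the group, 61.5% were then shared with kEpiSCs (39.5% of those near any TSS). With the core protein classes alone, 4 of 9 pro-survival genes (44.4%) and 7 of 16 pro-death genes (43.8%) had an EpiSC peak, against 21.8% of all genes. The core classes hold fewer genes, so the pro-death count moved while its share stayed near 41.4%. Mdm2 had 2 EpiSC peaks within 20 kb and 11 within 100 kb, and 3 kEpiSC peaks within 100 kb. With 1 mismatch allowed in the AP-1 site, 70.4% of the EpiSC peaks held one, against 68.2% near any TSS. Added after seeing the data, a limit of 12 kb gave 19 genes in EpiSCs (24.0% of all genes) and 14 in kEpiSCs (9.41%). Also added then, leaving out peaks nearer to another gene gave 14 genes in EpiSCs (31.1%, against 18.2% of all genes), without Apaf1, Bak1, Bax and Casp9, of which 6 were pro-survival (50.0%) and 8 pro-death (27.6%). Low read numbers limit the weakest peaks, at 6 reads for Bax, Bid and Mdm2.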

Other observations

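Several apoptosis genes stood among many c-Jun peaks rather than beside 1. Within 50 kb of a TSS Bik had 11 EpiSC peaks, as did Mcl1, a number reached by 0.395% of all genes, and Ppif had 8 (1.21%) and Bak1 6 (3.33%). The median was 1 for the 45 genes and 1 for all genes. Most of the Bik peaks lay upstream, nearer to Ttll1 or Pacsin2 than to Bik. All of the Bak1 peaks were nearer to Ggnbp1 or Itpr3, and some of the Mcl1 peaks were nearer to Ensa or Adamtsl4. In kEpiSCs Ppif had 5 peaks (0.662%) and Bik and Bbc3 had 4 each (1.51%). The median was 1 for the 45 genes and 0 for all genes.

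Some of the strongest signals of the group lay between 10 and 50 kb from a TSS. Bnip3l had a peak 35644 bp downstream with a fold of 15.7 and 22 reads, against 5.15 and 8 reads at its promoter. Bbc3 had one 12484 bp upstream, nearer to Ccdc9, with a fold of 12.7 and 23 reads in EpiSCs and 3.95 and 14 reads in kEpiSCs.

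The half-site bound by p53 was found in 3 of the 27 EpiSC peaks of the group (11.1%, 3.85 to 28.1%), near Apaf1, Bid and Casp9, against 5.25% of EpiSC peaks near any protein-coding TSS. It was found in 0 of the 13 kEpiSC peaks (0.0 to 22.8%), against 4.88%. A match describes the sequence and shows no binding of p53.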
